A study of Sus scrofa with 40 samples.

Results

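The proteasome genes described here were the genes on a porcine kidney array whose symbol names a subunit, assembly factor or activator of the proteasome (PSMA, PSMB, PSMC, PSMD, PSME, PSMF and PSMG followed by a number), together with PAAF1, taken as 1 probe that the array left without a symbol and the study named. The rule found 27 genes, measured by 30 identifiers and 69 probes, among the 35955 identifiers on the array. They were 5 genes of the α ring of the 20S core, 5 of its β ring, 4 alternative catalytic subunits, 3 ATPases and 4 other subunits of the 19S cap, 2 factors of cap assembly, 1 factor of core assembly and 3 genes of the 11S (PA28) activator. PSMD1, one of the 3 genes first set down as markers of the complex, has no symbol of its own on the array and is not among them, whereas PSMA1 and PSMB5 are.

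Kidneys of Large White pigs aged 3 months were sampled in the cortex (C) and in the corticomedullary junction (CMJ), the border of cortex and medulla. Control kidneys (Ctl) were sampled at removal, WI kidneys after 60 min of warm ischemia under a clamp at 37 °C, and a further set after the same warm ischemia, a flush with University of Wisconsin solution and storage at 4 °C for 6 h (WI+CS6h) and 24 h (WI+CS24h). Each of the 8 groups held 5 samples, each on 1 single-color array, and the 40 samples came from 15 kidneys, since the 6 h and the 24 h samples were taken from the same 5 stored kidneys. No kidney was stored without prior warm ischemia, and none was reperfused with blood, so that all cold-stored values carry both steps. The kidneys of the control, WI and stored sets were independent, and p-values measure the spread between these samples. The main fits held no term for the kidney. Comparisons of 24 h with 6 h, of CMJ with cortex and the interactions share kidneys, so that their tests and intervals ignore this pairing.

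The proteasome is the main protease of cytosol and nucleus. Its 20S core is a barrel in which outer rings of α subunits gate the entry and inner rings of β subunits hold the cutting sites, provided by PSMB5, PSMB6 and PSMB7. Cells exposed to interferon make PSMB8, PSMB9 and PSMB10 in their place, which gives the immunoproteasome and favours peptides for presentation on class I molecules. The 19S cap binds proteins that carry ubiquitin chains, removes the chains and unfolds the protein with a ring of ATPases, and PA28 is an alternative cap that opens the core without ATP. Chaperones such as PSMG1 for the core and PSMD10 (gankyrin) and PAAF1 for the base of the cap act while the particle is built and are not part of the finished protease.

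The probes are DNA oligonucleotides of 60 bases, and those that bear on the results are shown as the array files hold them, 5′ to 3′. The first pair is the PSMB5 probe and the PSMB8 probe with the best ungapped match between these 2 genes, which code for alternative forms of the same catalytic site. The match covers 23 bases, of which 17 are identical and 6 differ (capitals), and the longest run shared by both probes is 5 bases.
PSMB5: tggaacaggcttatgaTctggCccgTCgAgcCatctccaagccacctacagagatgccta
PSMB8: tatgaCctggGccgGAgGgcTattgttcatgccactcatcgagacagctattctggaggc
A further PSMB8 probe, which gave a like difference, closes with the bases TAA (capitals), which read as a stop codon.
PSMB8, second probe: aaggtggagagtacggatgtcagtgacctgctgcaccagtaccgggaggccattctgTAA
For PAAF1, the gene with the clearest difference, the last 30 bases of the probe are shown, and they close with a run of 6 A (capitals).
PAAF1: cttattaaacacgttttccccaggAAAAAA

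Values are log2 of the background-corrected intensity after quantile normalization of all 40 arrays, so that a difference of 1 is a doubling. Of the 30 identifiers, 29 were well above background on all 40 arrays, and the exception was the second identifier of PSMD12, a lid subunit, which was so on 12 of 40 and is not used for that gene. Over the whole array, 57.01% to 69.91% of the spots of a sample were well above background. The tissue labels were checked with SLC12A1 and KCNJ1, transporters of the thick ascending limb, which were higher in Ctl-CMJ than in Ctl-C by 1.24 (SE 0.25, limma adjusted p = 0.0119) and 0.69 (SE 0.13, limma adjusted p = 0.00546) on the log2 scale, although the arrays of both groups overlapped. Of 8 measured loop and collecting duct genes, limma called 2 in this comparison, with a median of 0.54 for the 8. Of 9 measured proximal tubule genes it called 0, with a median of -0.24. These are bulk samples, in which fewer cells of a type and less RNA per cell cannot be told apart.

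The samples numbered 5 of the cold-stored groups stood apart from the other 4 samples of their groups in the proteasome genes. In WI+CS6h-C, sample 5 held the highest value of the group for 24 of 27 genes, with a median of 0.54 above the mean of the other 4 on the log2 scale. In WI+CS24h-C it was highest for 17 of 27 genes (median 0.25), in WI+CS6h-CMJ for 21 (median 0.39) and in WI+CS24h-CMJ for 22 (median 0.43). Over all identifiers, the same 4 samples were highest in 33.2%, 20.6%, 28.2% and 21.9%, with medians between -0.03 and 0.03. The array of WI+CS6h-C sample 5 had the smallest share of spots well above background of all 40 (57.01%, with 57.23% to 68.47% in the rest of its group) and was the least like any other array (highest correlation 0.9753). The other 3 samples had shares of 67.02%, 64.29% and 65.97%, with 63.36% to 67.48%, 66.54% to 69.91% and 62.22% to 63.98% in the rest of their groups. No sample of WI-CMJ stood out in the proteasome genes, but WI-C sample 2 was highest for 22 of 27 genes (median 0.22), Ctl-CMJ sample 3 for 19 (median 0.22) and Ctl-C sample 5 for 14 (median 0.08). Over all identifiers these samples were highest in 32.7%, 30.1% and 34.4%.

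**Figure D1:**
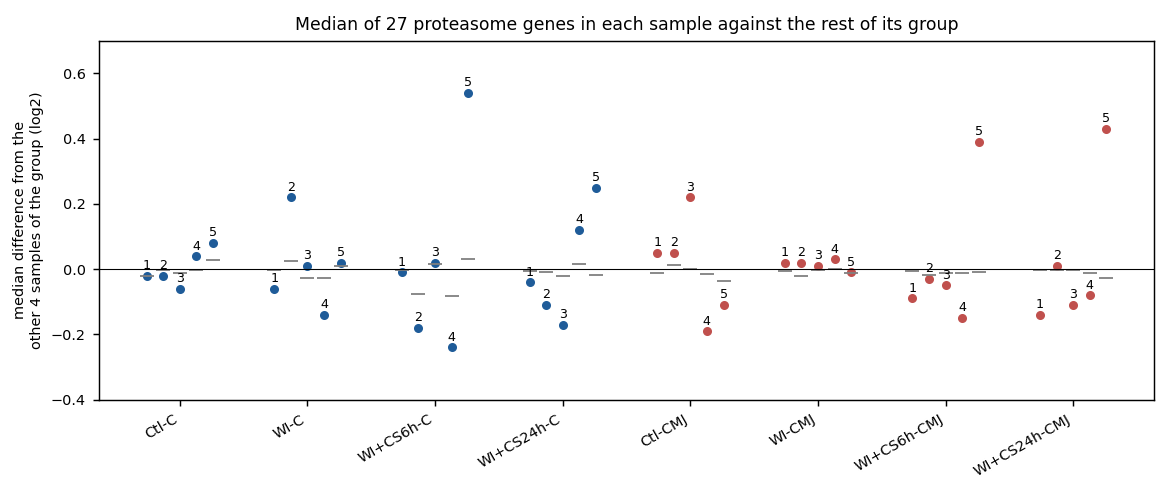
Each point is the median over the 27 proteasome genes of the difference (log2, y axis) between 1 sample and the mean of the other 4 samples of its group (x axis), labelled with the sample number, in cortex (blue) and corticomedullary junction (red), and grey dashes give the median of the same difference over all identifiers. The 4 samples numbered 5 of the cold-stored groups lie between 0.25 and 0.54, above the other samples.

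The genes that were highest in these 4 samples came from every part of the particle. PSMD14, the deubiquitinase of the 19S lid, exceeded the mean of the other samples by 0.96 to 1.24 on the log2 scale, and PSME2, the β chain of PA28, by 0.91 to 1.31. PSMG1 exceeded it by 0.80 to 1.06 and PSMB3, a structural β subunit, by 0.71 to 1.06. PSMB9 and PAAF1 ran the other way, with differences of -0.99 to -0.48 and -0.32 to -0.19, and sample 5 was the lowest of its group for both genes in all 4 groups. Samples numbered 5 of groups without storage were also the lowest for PAAF1 in Ctl-C, WI-C and Ctl-CMJ (-0.19, -0.09 and -0.10) and for PSMB9 in WI-C and WI-CMJ (-0.20 and -0.39), whereas for PSMB9 they were the highest in Ctl-C and Ctl-CMJ (0.35 and 0.62). The sum of leukocyte markers was high in these samples: the summed linear intensity of the 18 measured genes of 23 was 2570, 2550, 3260 and 2780 in the 4 samples (in the order WI+CS6h-C, WI+CS24h-C, WI+CS6h-CMJ, WI+CS24h-CMJ) against 1110 to 1530 in the other samples of these groups, with 10 to 13 of the 18 genes well above background in every sample of a group. Such a sum is weighted to the brightest genes, and the direction of each gene in these samples was not taken. Against controls, the median log2 fold change of the 18 genes in the same order of groups was 0, -0.18, -0.19 and -0.25. The sum of 9 proximal tubule markers ran the other way, at 145000 to 166000 against 173000 to 215000. The sum of 12 class I antigen processing genes was also lowest in these samples, at 30500 to 34200 against 42000 to 59100, and in sample 5 of WI-C (44800) and WI-CMJ (50400), but highest in that of Ctl-C (52900) and Ctl-CMJ (69400). The sum of 7 skeletal muscle markers was highest in them, at 603, 634, 917 and 721 against 393 to 517, 379 to 512, 486 to 568 and 466 to 663, and it was also highest in sample 5 of Ctl-C, Ctl-CMJ and WI-CMJ. The sum of 6 endothelial markers was lowest in the 4 samples (4000 to 4570), and that of the 2 measured erythrocyte markers was highest in them, as in sample 5 of Ctl-C, Ctl-CMJ and WI-CMJ, although neither gene was well above background in every sample of a stored group. The part of these cells and of signal over background in the result was not tested. Since 4 of 20 samples in the stored groups decide several averages below, values without them are given beside several results below.

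The comparisons asked whether warm ischemia, and cold storage after it, changed the RNA of these genes, and a gene was called where the limma adjusted p was under 0.05 with a change of 0.5 or more in either direction on the log2 scale. In cortex, WI against Ctl called 0 of 27 genes (0.0946% of all identifiers tested), with 2 of 27 at an unadjusted p under 0.05 (4.89% of all identifiers). WI+CS6h-C against Ctl-C called 1 (background 4.02%) and WI+CS24h-C against Ctl-C called 0 (background 2.5%), with 4 of 27 genes each at an unadjusted p under 0.05, beside 21.4% and 16.2% of all identifiers. Against WI-C, the 6 h and the 24 h samples gave 0 calls each (background 1.93% and 1.2%), again with 4 genes each at an unadjusted p under 0.05 (15% and 11.4% of all identifiers). Between 24 h and 6 h in cortex there was no call among the 27 genes or all 35939 identifiers (background 0%), and 0 of 27 genes and 1119 identifiers had an unadjusted p under 0.05.

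In the CMJ, WI against Ctl called 0 of 27 genes (background 0.687%), with 1 gene at an unadjusted p under 0.05 (12.3% of all identifiers). WI+CS6h-CMJ and WI+CS24h-CMJ against Ctl-CMJ called 1 gene each (background 3.19% and 3.65%), with 3 genes each at an unadjusted p under 0.05 (16% and 17.7% of all identifiers). Against WI-CMJ the counts were 0 and 0 (background 2.78% and 2.85%), again with 3 genes each under that p (16.9% and 16.4% of all identifiers). Between 24 h and 6 h the count was 0 (background 0.00278%), with 0 of 27 genes at an unadjusted p under 0.05. Without the 4 samples numbered 5, 3 and 5 genes in cortex and 7 and 8 in the CMJ had an unadjusted p under 0.05 against controls at 6 h and 24 h, and 4, 4, 7 and 9 against WI. That setting was chosen after the values were seen, and the share of all identifiers under that p was not taken in it. These counts, and the like counts below, thus cannot be read against a background. Limma calls over all identifiers in that setting were 1148 and 1238 in cortex and 1257 and 1448 in the CMJ against controls. With all samples kept, PAAF1 was the gene behind all 3 calls, and no gene that entered by its symbol was called. Since PAAF1 entered as a probe that the study named as regulated in these same samples, 1 of 27 cannot be read against the background.

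The median of the 27 genes stayed close to 0 in every comparison. Against Ctl-C it was 0.11 after WI, 0.14 after WI+CS6h and 0.12 after WI+CS24h on the log2 scale, beside 0.01, 0.05 and 0.01 for all identifiers. Against Ctl-CMJ it was -0.03, -0.04 and -0.05, beside -0.01, -0.01 and 0.00. Without the 4 samples numbered 5, the medians for 6 h and 24 h were 0.01 and 0.04 in cortex and -0.08 and -0.11 in the CMJ. Absolute differences under 0.25 were found for 19 of 27 genes in both cold-stored groups of the cortex and for 21 in both of the CMJ, against 50.4%, 57.5%, 67.2% and 63.9% of all identifiers. In these 4 comparisons, 16, 16, 17 and 18 of 27 genes had a 95% interval of the difference that lay within ±0.5.

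**Figure D2:**
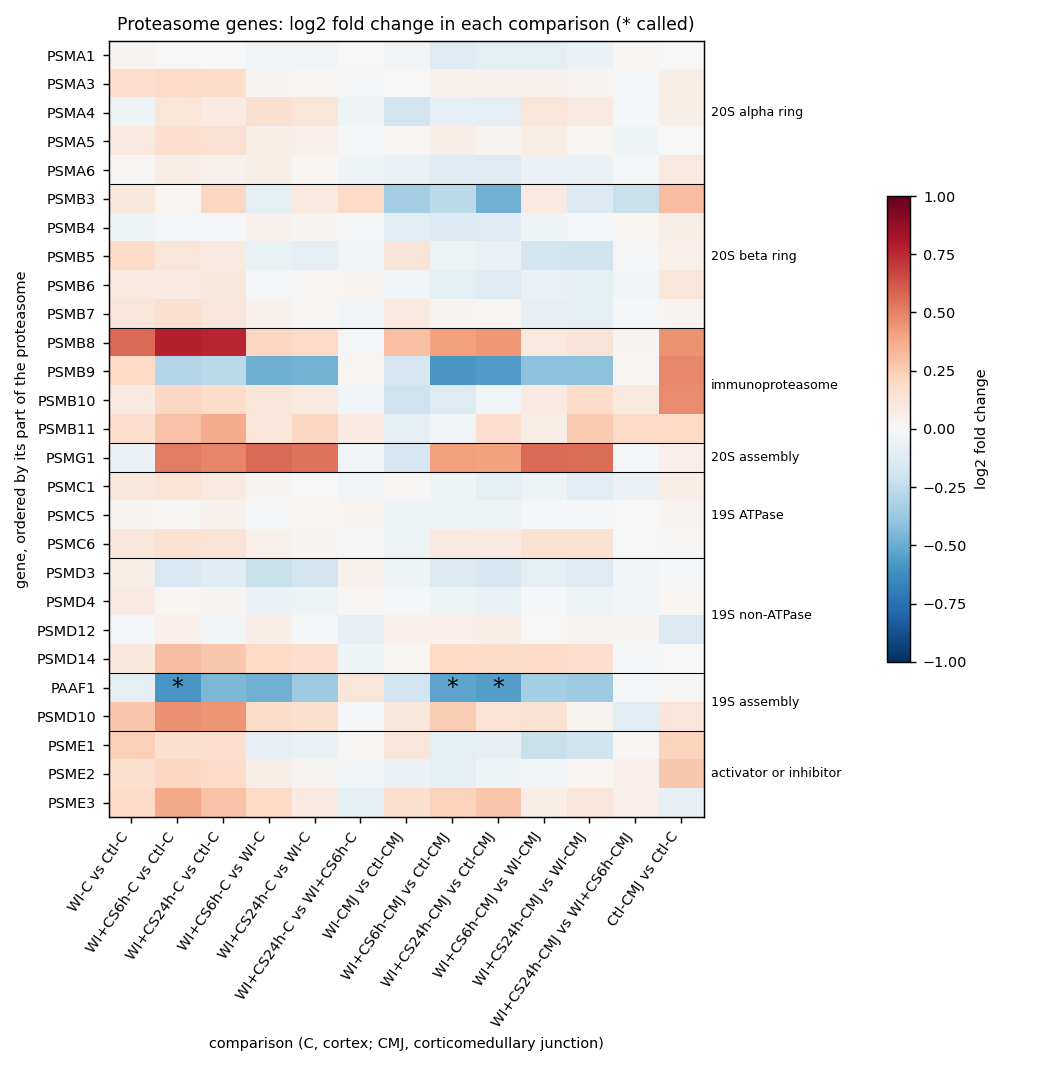
Log2 fold change (colour, red higher and blue lower in the first-named group) of the 27 proteasome genes (y axis, grouped by their part of the particle) in 13 comparisons within and between tissues (x axis), with an asterisk for a called gene. PAAF1 carries the 3 asterisks, the α ring and the ATPases are pale throughout, and PSMB8, PSMB9 and PSMG1 have the strongest colours among genes not called.

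The α ring, whose subunits gate the core, gave 0 limma calls in its 5 measured genes in any comparison, with 0 at an unadjusted p under 0.05 when all samples were kept, and all 5 had intervals within ±0.5 in each of the 6 comparisons with controls. PSMA1 measured 10.99, 10.89, 10.85, 10.93 and 10.92 in Ctl-C and 10.88, 10.75, 10.90, 10.77 and 11.31 in WI+CS6h-C. The first 4 stored samples lay at or just under the controls and sample 5 lay above them all, and the difference was 0.00 (SE 0.11, limma adjusted p = 0.996). Without the samples numbered 5 it was -0.10 there, and -0.19 and -0.18 in the stored CMJ groups (limma adjusted p = 0.157 and 0.183) in place of -0.12 and -0.09. PSMA1 and PSMA6 then had an unadjusted p under 0.05 in both, once the highest stored sample of each gene was left out. PSMA4 had the largest difference from controls of the 5 genes, -0.19 in WI-CMJ. It measured 10.24, 10.38, 10.25, 10.45 and 10.30 in Ctl-C and 10.52, 10.31, 10.39, 10.11 and 10.91 in WI+CS6h-C, where the range of the stored samples enclosed that of the controls. Its difference there was 0.12 (SE 0.12, limma adjusted p = 0.562), and 0.01 without the samples numbered 5. PSMA3, PSMA5 and PSMA6 differed by 0.07 to 0.19 in WI+CS6h-C and by -0.12 to 0.07 in WI+CS6h-CMJ, and without the samples numbered 5 by 0.02 to 0.05 and -0.17 to -0.02.

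The β ring of the standard particle holds the catalytic subunits PSMB5, PSMB6 and PSMB7 and the structural PSMB3 and PSMB4, and with all samples none of them was called by limma or had an unadjusted p under 0.05 in any comparison. Once the samples numbered 5 were left out, 2 and 3 of the 5 genes had an unadjusted p under 0.05 against Ctl-CMJ at 6 h and 24 h, and 2 and 3 against WI-CMJ. The CMJ samples left out were the highest of their groups for these genes, so that lower differences follow from the choice. The share of all identifiers was not taken in that setting. PSMB4 was there at -0.23 and -0.21 from Ctl-CMJ (limma adjusted p = 0.0824 and 0.106), and PSMB3 was the 1 gene called. PSMB5, which carries the chymotrypsin-like site, measured 9.87, 9.86, 9.95, 10.005 and 9.998 in Ctl-C and 10.16, 9.78, 10.03, 9.74 and 10.57 in WI+CS6h-C, with a difference of 0.12 (SE 0.13, limma adjusted p = 0.609). In WI+CS24h-CMJ it measured 9.75, 10.07, 9.64, 9.73 and 10.37 against 10.02, 10.03, 10.27, 9.75 and 9.84 in Ctl-CMJ, with a difference of -0.07 (SE 0.14). The groups overlapped in both tissues, and the sample numbered 5 was the highest stored sample in each. Without these samples the differences were -0.01 and -0.19. PSMB6 (caspase-like site) and PSMB7 (trypsin-like site) differed by 0.08 and 0.16 in WI+CS6h-C and by -0.13 and 0.02 in WI+CS24h-CMJ, and without the samples numbered 5 by -0.03 and 0.05, and by -0.22 and -0.09.

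PSMB3 was the most variable gene of the β ring. It measured 7.28, 7.28, 7.66, 6.54 and 6.82 in Ctl-CMJ and 6.28, 6.83, 6.33, 6.32 and 7.43 in WI+CS24h-CMJ, a difference of -0.48 (SE 0.23, limma adjusted p = 0.299). Samples 1 to 4 of the stored group lay at or below 6.83 and sample 5 lay within the upper controls. Without the 4 samples numbered 5 the difference was -0.67 with a limma adjusted p of 0.0456, so that PSMB3 was called in that setting, one chosen after its values were seen. In WI+CS24h-C the difference from Ctl-C was 0.21 (SE 0.28), and 0.07 without them.

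Of the immunoproteasome genes, PSMB8, the counterpart of PSMB5, had the largest difference from controls among all 27 genes, but was not called. In Ctl-C it measured 7.19, 7.14, 7.25, 7.21 and 7.65, and in WI-C 7.49, 8.25, 7.95, 7.95 and 7.63. It measured 8.56, 8.46, 7.69, 7.52 and 8.09 in WI+CS6h-C and 8.69, 8.58, 7.45, 7.87 and 7.64 in WI+CS24h-C. Samples 1 and 2 of the stored groups lay furthest above the controls, and of the 6 values of samples 3 to 5, 3 were above the highest control and 3 were not, so that the groups overlapped. The differences from Ctl-C were 0.57 after WI (SE 0.25, limma adjusted p = 0.975), 0.78 after WI+CS6h (SE 0.25, limma adjusted p = 0.0772, 95% interval 0.26 to 1.30) and 0.76 after WI+CS24h (SE 0.25, limma adjusted p = 0.115, 95% interval 0.24 to 1.28). All 3 probes of the gene gave alike values for WI+CS6h-C, at 0.80, 0.80 and 0.74. Over the 2 days on which arrays were scanned, the difference in WI+CS24h-C was 1.16 within the first and 0.22 within the second, and in WI+CS6h-C 0.82 and 0.75. With identifiers restricted to those well above background on every array of some group, PSMB8 passed in WI+CS6h-C (limma adjusted p = 0.0498).

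In the CMJ, where control levels of PSMB8 were 7.80, 7.61, 7.60, 7.49 and 8.16, the stored samples measured 8.71, 8.72, 7.81, 7.65 and 7.81 at 6 h and 8.73, 8.77, 8.10, 7.57 and 7.66 at 24 h. Samples 1 and 2 were again the high ones and samples 3 to 5 lay among the controls. The differences were 0.30, 0.41 and 0.43 after WI, WI+CS6h and WI+CS24h (SE 0.26, limma adjusted p between 0.42 and 0.72). Against the WI groups, PSMB8 differed by 0.10 to 0.21 in the 4 stored groups.

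PSMB9, which takes the place of PSMB6 and is a neighbour of PSMB8 in the major histocompatibility complex, did not follow PSMB8. In Ctl-CMJ it measured 10.55, 10.21, 10.04, 10.21 and 10.88, in WI+CS6h-CMJ 10.10, 10.14, 9.93, 9.58 and 9.25, and in WI+CS24h-CMJ 10.15, 10.20, 10.15, 9.52 and 9.01. Samples 4 and 5 were the lowest of both stored groups and samples 1 and 2 lay among the controls. The differences from Ctl-CMJ were -0.58 (SE 0.24, limma adjusted p = 0.224) and -0.57 (SE 0.24, limma adjusted p = 0.21), and without the samples numbered 5 they were -0.44 and -0.37. In cortex they were -0.29 and -0.27 from Ctl-C (-0.20 and -0.16 without those samples), and -0.49 (limma adjusted p = 0.135) and -0.47 (limma adjusted p = 0.204) from WI-C. None was called.

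PSMB10, the counterpart of PSMB7, measured 9.38, 9.18, 9.19, 9.20 and 9.57 in Ctl-C and 9.56, 9.58, 9.08, 8.88 and 10.49 in WI+CS6h-C, where sample 5 stood 1.22 above the mean of the others. The difference was 0.21 (SE 0.24, limma adjusted p = 0.614), and in the CMJ it was -0.13 at 6 h and -0.03 at 24 h. Without the samples numbered 5 these values were -0.03, -0.29 and -0.17. PSMB11, a subunit known from the thymus, had differences of -0.09 to 0.37 from controls over both tissues. The list of class I antigen processing had 12 of 16 genes measured, and 1 of them was called in any comparison with controls, the class I gene SLA-7, at -0.69 in WI+CS6h-C (limma adjusted p = 0.0153). SLA-7 was dim, and well above background in 4 of 5 Ctl-C samples and 1 of 5 WI+CS6h-C samples. At an unadjusted p under 0.05 there were 5 and 6 of the 12 genes in the stored cortex groups and 6 and 4 in the stored CMJ groups against controls. The median log2 fold change of the list was -0.04 and -0.12 in the stored cortex groups and -0.29 and -0.24 in the stored CMJ groups.

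**Figure D3:**
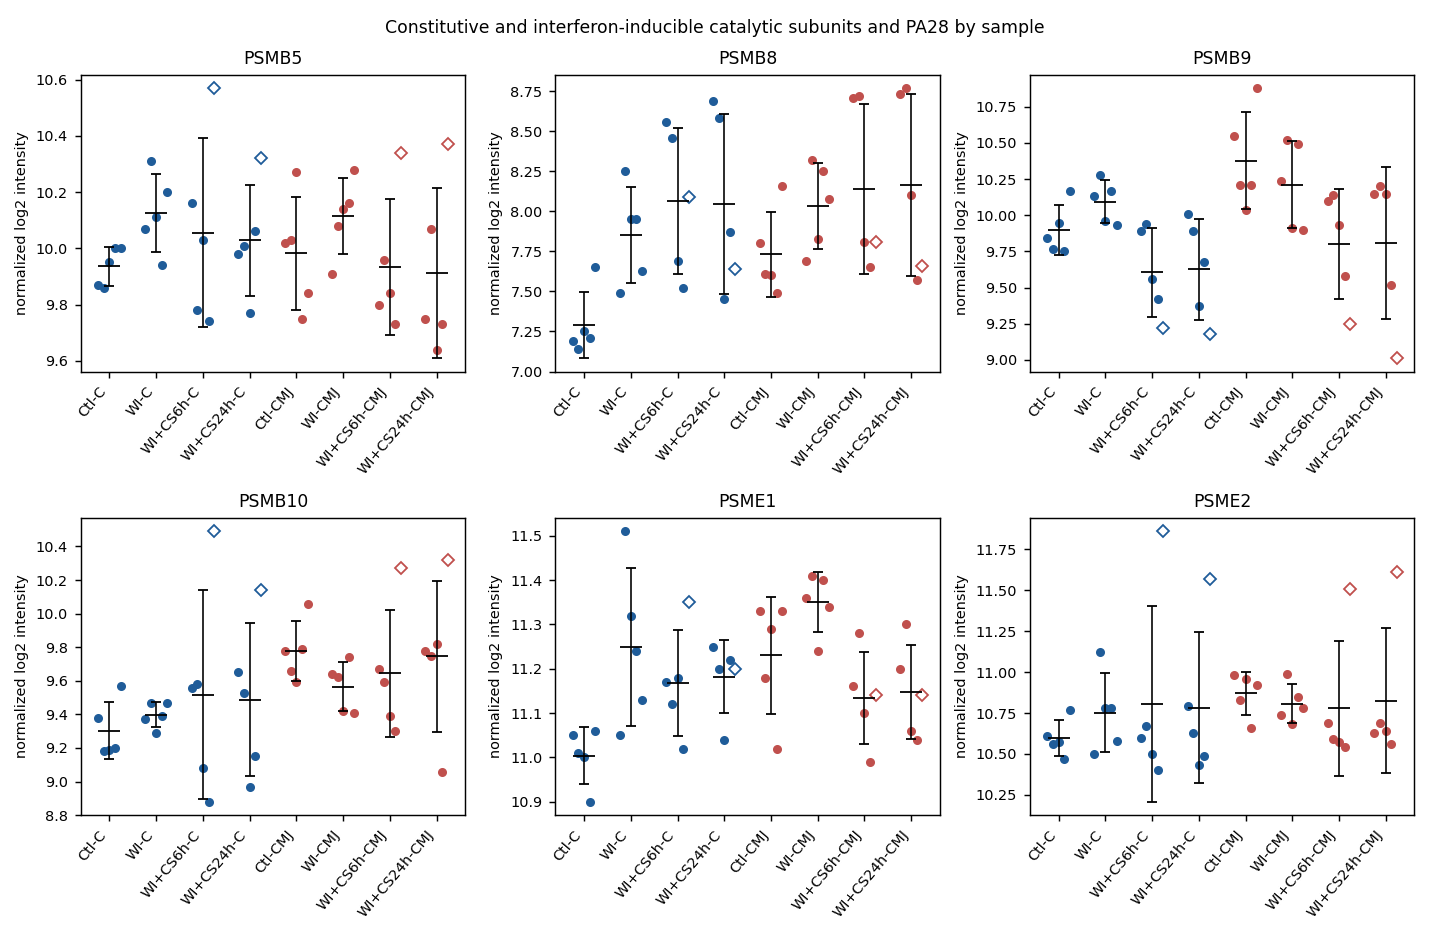
Normalized log2 intensity (y axis) of PSMB5, PSMB8, PSMB9, PSMB10, PSME1 and PSME2 in each sample of the 8 groups (x axis), in cortex (blue) and corticomedullary junction (red), with the mean and SD of 5 samples as bars and open diamonds for sample 5 of the cold-stored groups. The diamonds are the highest points of the stored groups for PSMB5, PSMB10 and PSME2 and the lowest for PSMB9, and PSMB8 is split between samples 1 and 2 and the others.

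The ATPases of the cap, which unfold the substrate, gave 0 limma calls, with 0 at an unadjusted p under 0.05 when all samples were kept, and all 3 measured genes had intervals within ±0.5 in the 6 comparisons with controls. PSMC6 measured 10.18, 10.01, 10.14, 10.04 and 10.05 in Ctl-C and 10.06, 10.14, 10.25, 10.22 and 10.50 in WI+CS6h-C, a difference of 0.15 (SE 0.10, limma adjusted p = 0.352) with overlap of the groups, and 0.09 without the samples numbered 5. PSMC1 and PSMC5 differed by 0.14 and 0.01 there and by -0.10 and -0.05 in WI+CS24h-CMJ, and without those samples by 0.08 and -0.05, and by -0.17 and -0.09.

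Of the other cap subunits, PSMD14, which cuts ubiquitin chains from the substrate, was the one with the largest difference. Its 5 controls in cortex lay between 10.11 and 10.14. In WI+CS6h-C it measured 10.27, 10.07, 10.36, 10.08 and 11.38 and in WI+CS24h-C 10.13, 10.10, 10.13, 10.44 and 11.16. A single sample of each stored group, the one numbered 5, lay far above the controls, and the differences of 0.31 and 0.27 (SE 0.22, limma adjusted p = 0.403 and 0.585) were 0.07 and 0.08 without it. In the CMJ the differences were 0.20 and 0.18 with that sample and -0.01 and -0.07 without. PSMD3, a lid subunit, had differences of -0.15 to -0.12 in the stored cortex groups and -0.17 to -0.14 in the stored CMJ groups (lowest limma adjusted p = 0.161). PSMD4, a ubiquitin receptor, and PSMD12 lay within -0.07 and 0.07 in all 4.

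PAAF1, a chaperone of the ATPase ring, was the one gene whose RNA passed the test, and it was lower after cold storage in both tissues. In Ctl-C it measured 10.65, 10.61, 10.63, 10.48 and 10.40 (10.55 ± 0.11, SD, n = 5), and in WI-C 10.44, 10.49, 10.56, 10.41 and 10.39 (10.46 ± 0.07). In WI+CS6h-C it measured 9.95, 9.85, 10.18, 10.13 and 9.76 (9.97 ± 0.18), and in WI+CS24h-C 10.06, 10.05, 10.20, 10.29 and 9.89 (10.10 ± 0.15). All 10 stored cortex samples lay below all 10 samples of controls and WI, which overlapped with each other. Relative to Ctl-C, PAAF1 fell by 0.58 at 6 h (SE 0.09, limma adjusted p = 0.00182, 95% interval -0.78 to -0.38), a level 0.67 times that of controls. In WI+CS24h-C the difference was -0.45 (SE 0.09, limma adjusted p = 0.0112), short of the minimum fold.

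In the CMJ, PAAF1 measured 10.58, 10.58, 10.62, 10.57 and 10.49 in Ctl-CMJ (10.57 ± 0.05) and 10.29, 10.56, 10.29, 10.42 and 10.33 in WI-CMJ (10.38 ± 0.12). It measured 9.97, 10.01, 10.22, 10.11 and 9.89 in WI+CS6h-CMJ (10.04 ± 0.13) and 9.96, 10.02, 10.25, 10.09 and 9.76 in WI+CS24h-CMJ (10.02 ± 0.18). Again no stored sample reached the lowest sample of controls or WI. It fell by 0.53 at 6 h (SE 0.09, limma adjusted p = 0.00153, 95% interval -0.71 to -0.35) and by 0.55 at 24 h (SE 0.09, limma adjusted p = 0.000986, 95% interval -0.73 to -0.37) against Ctl-CMJ. WI alone gave -0.09 in cortex (limma adjusted p = 1) and -0.19 in the CMJ (limma adjusted p = 0.388). From WI to cold storage the differences were -0.48 and -0.36 in cortex (limma adjusted p = 0.0104 and 0.0657) and -0.34 and -0.36 in the CMJ (limma adjusted p = 0.0327 and 0.0239), none reaching the minimum fold. Between 6 h and 24 h they were 0.12 in cortex (95% interval -0.07 to 0.32) and -0.02 in the CMJ (95% interval -0.20 to 0.16), both from unpaired fits. In cortex every 24 h sample was above the 6 h sample of the same number, and in the CMJ the signs were mixed.

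The probe of PAAF1 was picked by the study as regulated in these same samples, so that its call is not independent evidence of the direction. The differences from controls lay between -0.61 and -0.45 within each scan day in the 4 stored groups. Without the samples numbered 5 they were -0.53 and -0.40 in cortex and -0.49 and -0.48 in the CMJ, so that both CMJ calls were lost on the minimum fold, with limma adjusted p of 0.00143 and 0.00142. With 75th percentile scaling in place of quantile normalization, the 6 h differences were -0.46 in cortex and -0.49 in the CMJ (limma adjusted p = 0.0402 and 0.00853), and with quantile normalization within groups the 3 called differences were -0.50, -0.38 and -0.42, each short of the minimum fold. A second identifier that the array annotates as PAAF1 shares no run of over 6 bases with this probe. It differed from controls by -0.26, -0.77 and -0.53 in cortex after WI, 6 h and 24 h (SE 0.38, limma adjusted p = 1, 0.247 and 0.533) and by -0.23, -0.31 and -0.29 in the CMJ (SE 0.18, limma adjusted p = 0.691, 0.448 and 0.438), with overlap of all groups and no call.

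**Figure D4:**
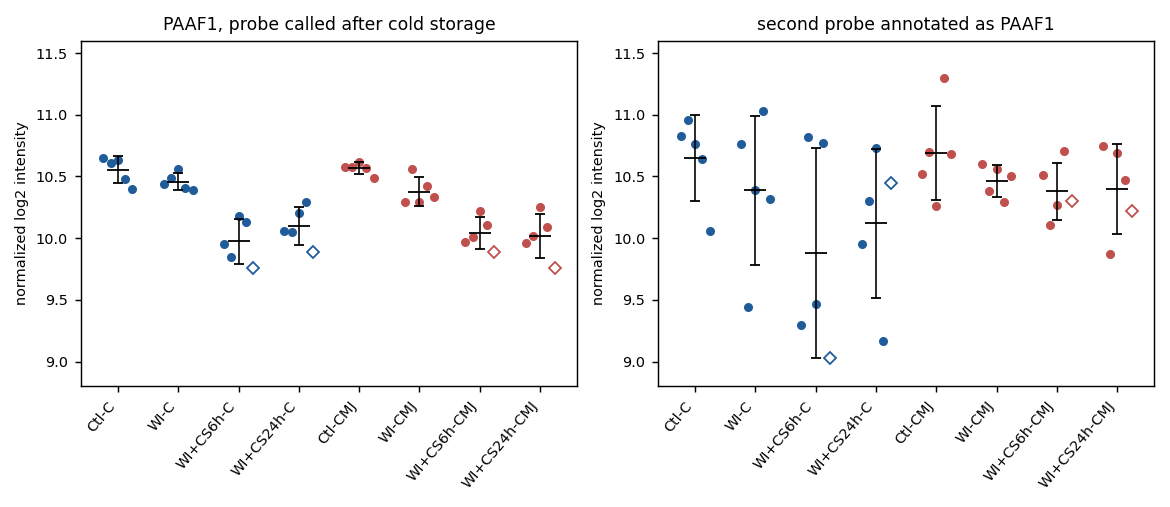
Normalized log2 intensity (y axis) of the PAAF1 probe called after cold storage (left) and of the second identifier annotated as PAAF1 (right) in each sample of the 8 groups (x axis), in cortex (blue) and corticomedullary junction (red), with the mean and SD of 5 samples as bars and open diamonds for sample 5 of the cold-stored groups. On the left, the 10 stored samples of each tissue lie below its 10 samples of controls and WI, and on the right the groups overlap.

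PSMD10, the other base chaperone measured, differed the other way in cortex, by 0.46 at 6 h (SE 0.18, limma adjusted p = 0.162) and 0.44 at 24 h (SE 0.18, limma adjusted p = 0.243), and was not called. In the CMJ the values were 0.25 and 0.14. Without the samples numbered 5 they were 0.29 and 0.36 in cortex and 0.13 and -0.03 in the CMJ.

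PSMG1, a chaperone that helps to build the α ring, was higher on average in every stored group, without passing the test. It measured 10.48, 10.36, 10.38, 10.62 and 10.56 in Ctl-C and 10.47, 10.44, 10.34, 10.41 and 10.44 in WI-C. It measured 10.61, 10.49, 11.06, 10.996 and 11.81 in WI+CS6h-C and 10.48, 10.49, 11.03, 11.21 and 11.61 in WI+CS24h-C. Samples 1 and 2 lay within the range of the controls and samples 3 to 5 above it, which is the reverse of the split seen for PSMB8. The differences were 0.51 and 0.49 from Ctl-C (SE 0.22, limma adjusted p = 0.19 and 0.286) and 0.57 and 0.54 from WI-C (SE 0.22, limma adjusted p = 0.21 and 0.315), where all stored samples lay above all WI samples.

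In the CMJ the same numbers were high: PSMG1 measured 10.50, 10.53, 10.88, 11.02 and 11.73 at 6 h and 10.42, 10.53, 10.86, 11.04 and 11.77 at 24 h, against 10.57, 10.53, 10.61, 10.42 and 10.49 in Ctl-CMJ. The differences were 0.41 and 0.40 from Ctl-CMJ (SE 0.23, limma adjusted p = 0.428 and 0.395) and 0.57 and 0.56 from WI-CMJ (limma adjusted p = 0.201 and 0.21). Without the samples numbered 5, those from controls were 0.31 and 0.32 in cortex and 0.21 and 0.18 in the CMJ, and those from the WI groups were 0.35 to 0.38.

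**Figure D5:**
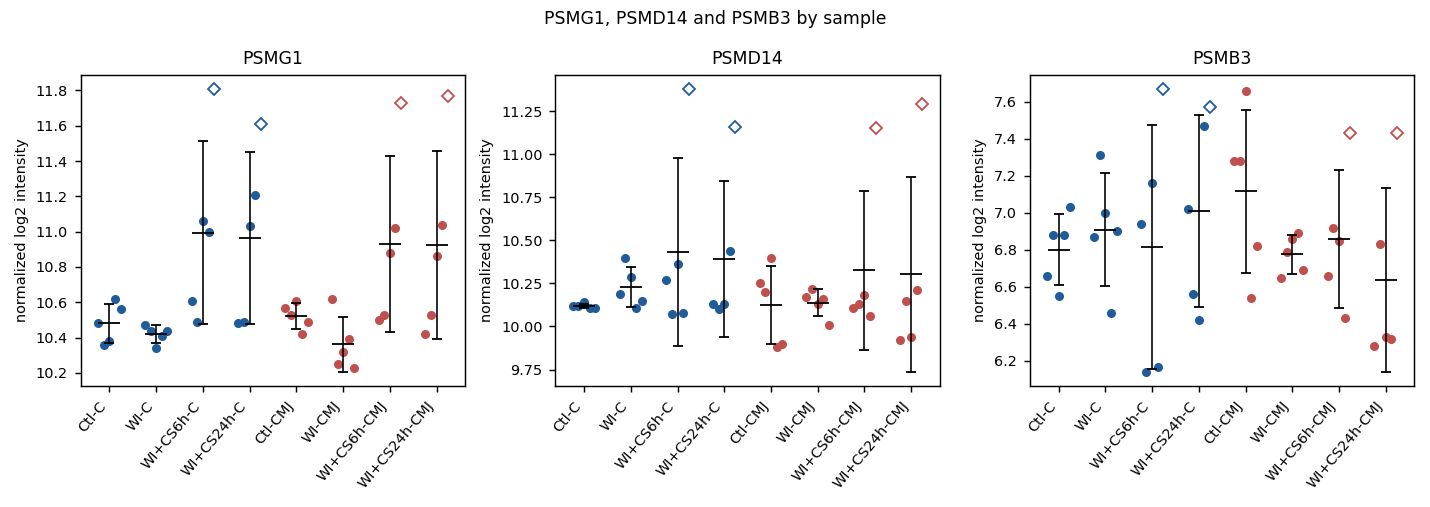
Normalized log2 intensity (y axis) of PSMG1, PSMD14 and PSMB3 in each sample of the 8 groups (x axis), in cortex (blue) and corticomedullary junction (red), with the mean and SD of 5 samples as bars and open diamonds for sample 5 of the cold-stored groups. The diamonds are the highest points of each stored group in all 3 genes, and for PSMG1 samples 3 and 4 also lie above samples 1 and 2.

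The activator genes gave 0 limma calls, with 0 or 1 of 3 genes at an unadjusted p under 0.05 in each comparison (0 to 2 without the samples numbered 5). PSME1 and PSME2 code for the α and β chains of the interferon-inducible PA28 ring, and PSME3 for its nuclear form. PSME1 measured 11.05, 11.01, 11.004, 10.90 and 11.06 in Ctl-C and 11.05, 11.51, 11.32, 11.24 and 11.13 in WI-C, a difference of 0.24 (SE 0.09, limma adjusted p = 0.774). In the stored cortex groups it was 0.16 and 0.17 (SE 0.09), and in the CMJ -0.10 and -0.08 (SE 0.08). PSME2 measured 10.60, 10.67, 10.50, 10.40 and 11.86 in WI+CS6h-C against 10.61, 10.56, 10.57, 10.47 and 10.77 in Ctl-C, so that 4 samples lay near the controls and 1 far above them.

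The PSME2 differences were 0.21 and 0.19 in the stored cortex groups and -0.09 and -0.04 in the CMJ, and without the samples numbered 5 they were -0.05 and -0.01 in cortex and -0.27 and -0.24 in the CMJ (limma adjusted p = 0.0522 and 0.0889). PSME3 measured 7.96, 7.57, 7.60, 7.30 and 8.62 in WI+CS6h-C against 7.32, 7.29, 7.37, 7.51 and 7.65 in Ctl-C, with a difference of 0.38 (SE 0.20, limma adjusted p = 0.283), and sample 5 was again the highest. The other 3 differences of PSME3 after cold storage were 0.23 to 0.29. Without the samples numbered 5 they were 0.18 and 0.17 in cortex and 0.08 and 0.11 in the CMJ.

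Between the tissues, Ctl-CMJ against Ctl-C called 0 of 27 genes (background 0.312%), with 3 at an unadjusted p under 0.05 (6.09% of all identifiers). The test was unpaired. With a term for the kidney, taken from the sample number, limma calls over all identifiers went from 112 to 390. The 3 largest values were those of the immunoproteasome genes: PSMB9 was at 0.48 (SE 0.21, limma adjusted p = 0.666), PSMB10 at 0.47 (SE 0.22, limma adjusted p = 0.786) and PSMB8 at 0.45 (SE 0.26, limma adjusted p = 0.939). All Ctl-CMJ samples of PSMB10 (9.59 to 10.06) lay above all Ctl-C samples (9.18 to 9.57). PSMB3 was at 0.31, PSME2 at 0.27 and PSME1 at 0.22 (limma adjusted p = 0.388). The median over the 27 genes was 0.06, beside -0.01 for all identifiers.

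Whether the tissues responded differently was tested as an interaction, the difference from controls in the CMJ minus that in cortex. None of the 27 genes was called for WI, WI+CS6h or WI+CS24h, and none of all 35934 identifiers was (background 0% in each). At an unadjusted p under 0.05 there were 0, 1 and 1 of 27 genes against 710, 1856 and 928 identifiers. The median of the 27 genes was -0.10, -0.15 and -0.14, beside -0.005, -0.03 and 0.003 for all identifiers. The value was above 0 in 1, 2 and 1 of the 27 genes, and the share of signs over all identifiers was not taken. Many of these genes were highest together in single samples, such as WI-C sample 2 and Ctl-CMJ sample 3, so that the signs are not 27 separate results. The 3 tests share the control samples, and those at 6 h and 24 h also share kidneys. PSME1 was the gene under 0.05 at both storage times, at -0.26 each (SE 0.11, limma adjusted p = 0.836 and 1), and PSMB3 had the widest value, -0.68 at 24 h (SE 0.37, limma adjusted p = 1). For PAAF1 the interactions were -0.09, 0.05 and -0.09 (SE 0.13), with 95% intervals within -0.35 and 0.31.

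Other genes of the pathway were read from lists. Of 26 partners of the proteasome 10 were measured, and ZFAND5, which binds the proteasome and raises its activity, was the one called in all 4 stored groups. In Ctl-C it measured 10.47, 10.28, 10.49, 10.08 and 10.25 and in WI+CS6h-C 9.58, 9.28, 9.60, 9.61 and 9.27, with no overlap. ZFAND5 fell by 0.84 and 0.87 in cortex at 6 h and 24 h (limma adjusted p = 0.00153 and 0.00137) and by 0.87 and 0.83 in the CMJ (limma adjusted p = 0.000368 and 0.000486). UBQLN4, a shuttle factor, rose by 0.70 in WI-CMJ (limma adjusted p = 0.0298). The median of the 10 partners was 0.15, 0.11, 0.11 and 0.09 in the 4 stored groups against controls. Of 14 ubiquitin and E1 genes 9 were measured, and of 12 regulators of proteasome genes 8, with 0 calls in either list in any comparison by limma and at most 3 and 2 genes at an unadjusted p under 0.05.

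A further 17 identifiers carried a proteasome description without meeting the rule, 9 of them well above background on all 40 arrays, and 0 of 17 were called in any of the 16 comparisons by limma, with 0 to 4 at an unadjusted p under 0.05. The 9 lay between -0.77 and 0.37 in the 6 comparisons with controls (lowest limma adjusted p = 0.0591). Single markers of other tissues were called in the stored cortex groups. The summed intensity of 7 of 8 skeletal muscle markers was 226 to 324 in Ctl-C and 393 to 603 in WI+CS6h-C, with 3 of 7 well above background in every sample of these groups, and CKM, the muscle creatine kinase, rose by 2.14 and 2.33 in the stored cortex groups (SE 0.39, limma adjusted p = 0.00386 and 0.00247). It was the 1 muscle marker of 7 called there, and the medians of the 7 were 0.16 and 0.05. The sum of 6 adipocyte markers was 641 to 705 in Ctl-C and 757 to 986 in WI+CS6h-C, where LPL was the 1 of 6 called, and limma called 0 of 6 at 24 h, with 3 at an unadjusted p under 0.05. In the CMJ these sums overlapped between groups (muscle 276 to 584 in Ctl-CMJ and 486 to 917 in WI+CS6h-CMJ, adipocyte 522 to 819 and 692 to 853), and limma called 0 markers of either list in the stored CMJ groups against controls, with 2 and 3 muscle and 1 and 1 adipocyte markers at an unadjusted p under 0.05. Of the kidney lists, 1 of 8 measured loop and collecting duct genes (of 11 listed) was called in 3 of the 4 stored groups against controls, SCNN1G, a subunit of the epithelial sodium channel. Of 9 measured proximal tubule genes (of 12), GGT1 was called in both stored cortex groups and SLC22A8 in WI+CS6h-CMJ, and of 6 endothelial genes 1, KDR, in the stored CMJ groups. Of 18 leukocyte genes and of the 2 measured erythrocyte genes (of 6) limma called 0 in any comparison, with at most 5 and 1 at an unadjusted p under 0.05. Their part in the PAAF1 and PSMB8 values was not tested.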

How the data were processed

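RNA from 40 samples of pig kidney was hybridized to single-color Agilent porcine arrays. The intensity values deposited for each array are, per the file headers, the processed spot intensities of Agilent Feature Extraction 11.5.1.1, background-subtracted and not normalized between arrays. The authors also deposited a log2 matrix, made per their methods by log2 transformation and quantile normalization by condition with limma in R 2.15.2. Its column medians were 5.316 to 5.355, with ranges that overlapped between groups. Its correlation with the normalized log2 values per identifier made here was 0.941 to 0.943 on each array, and it served as an alternative. No column of it was left unused (0).

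Here, log2 of the processed intensity was taken, outlier spots were set missing (10 to 85 per array), the 40 arrays were quantile normalized, and the 43803 spots were averaged to 35955 identifiers. No filter on dim spots was applied. Limma 3.58.1 (R 4.3.3) was fitted in each tissue (20 arrays, 6 comparisons) and over all arrays for Ctl-CMJ against Ctl-C and for 3 interactions. The Benjamini-Hochberg adjustment ran over all 35939 (cortex), 35938 (CMJ) or 35934 (both) identifiers tested, and 0.05 with a log2 difference of 0.5 made a call. The fits were tested on simulated data. Figures were drawn with matplotlib 3.10.9 in Python 3.11.15.

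A gene was represented by its identifier with the highest mean over the 40 arrays. Genes given with values were those called in any of the 16 comparisons, PSMA1, PSMB5, PAAF1, PSMB8, PSMB9, PSMB10, PSME1 and PSME2, and for each part of the particle the gene with the largest difference from controls. Other values are given as ranges. The members, the lists and this rule were chosen with earlier results of these data known. Names came from the array files and, by accession, from RefSeq tables (5747 identifiers). PAAF1 has its name from the study alone, its probe having none in the files.

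Alternatives were other scalings and background corrections, the deposited matrix, a filter on dim identifiers, 1 probe per gene, the scan day (2), the slide (10), the share of spots above background or the kidney in the fit, a replicate block, fewer groups in the fit and leaving out each sample. Each scan day held all 8 groups. The labels say that the 6 h and 24 h samples came from the same 5 kidneys. As a check of pairing, same-numbered samples of the 6 h and 24 h groups had correlated deviations from their group means of 0.651 to 0.89 in the CMJ and -0.421 to 0.696 in cortex (17253 identifiers). Precision is limited by the 5 arrays per group, since array intensities give no counts.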

Additional observations from a re-analysis of the deposited data

Results flagged for a closer look

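Among 14 named genes in 8 groups of 5 samples each (112 sets), 12 held a sample whose distance from its nearest neighbor was over 0.71 of the range of the set, where chance gives about 5%. The sets share arrays and kidneys, and 8 of the 14 genes were named for their differences from controls, so that the count cannot be read against that share. In 10 of the 12, it was the sample numbered 5 of a cold-stored group, and each of these was the highest of its group. PSMA1 measured 11.31, 11.11 and 11.17 in that sample of WI+CS6h-C, WI+CS6h-CMJ and WI+CS24h-CMJ, and PSMC6 10.31 in WI+CS6h-CMJ. In the same order of groups PSMD14 measured 11.38, 11.15 and 11.29, and PSME2 11.86, 11.51 and 11.61. The remaining 2 were PSMB8 in Ctl-C sample 5, the highest at 7.65, and PSME1 in WI+CS24h-C sample 3, the lowest at 11.04.

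The position of the samples numbered 5 was read again with other normalizations, a choice made after seeing the data. With 75th percentile scaling they held the highest value for 24 of 27 genes in WI+CS6h-C, 13 in WI+CS24h-C, and 22 in each of the stored CMJ groups. Other samples stood out as much by count in that setting: WI-C sample 2 was highest for 25 genes (median 0.41), and Ctl-CMJ sample 3 and Ctl-C sample 5 for 23 each (medians 0.36 and 0.24). In WI+CS24h-C the median of sample 5 (0.27) was then below that of sample 4 (0.29). With the deposited matrix the counts were 22, 17, 21 and 20, and with normexp background correction 23, 15, 21 and 21. These 4 samples come from stored kidneys of 1 number, and whether the number marks 1 kidney in all 4 groups is not given in the sources used here.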

How the results depend on the processing

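PAAF1 had a negative difference in all 13 other settings in the 3 comparisons where it was called. In WI+CS6h-C it ranged from -0.59 to -0.46 (limma adjusted p 0.0015 to 0.0402) and was called in 10, in WI+CS6h-CMJ from -0.54 to -0.38 (0.000269 to 0.0121) and was called in 9, and in WI+CS24h-CMJ from -0.63 to -0.42 (0.000118 to 0.0259) and was called in 11. Every lost call was lost on the minimum fold, a value of -0.50 being short of it before rounding. With 75th percentile scaling the differences were -0.46 in WI+CS6h-C and -0.49 in WI+CS6h-CMJ, with normexp -0.50 and -0.49, and with quantile normalization within groups -0.50, -0.38 and -0.42 in the order above. With the authors' deposited matrix, which their methods describe as normalized by condition, PAAF1 was called in all 3, at -0.52, -0.54 and -0.59. Without the 4 cold-stored samples numbered 5, a setting chosen after seeing the data, they were -0.49 and -0.48 in the CMJ.

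The count of the 27 genes called in WI+CS6h-C against Ctl-C was 1, and 0 with 75th percentile scaling and with normexp, and 2 with the filter on dim identifiers, where PSMB8 was added. Quantile normalization within groups called PSMB8 there (0.76, limma adjusted p = 0.0433) and not PAAF1. WI+CS6h-CMJ against Ctl-CMJ went from 1 to 0 with 75th percentile scaling, with normexp, with quantile normalization within groups and without the samples numbered 5. WI+CS24h-CMJ against Ctl-CMJ went from 1 to 0 with quantile normalization within groups, and without the samples numbered 5 the 1 gene called was PSMB3 in place of PAAF1. Quantile normalization within groups also raised WI+CS6h-C against WI-C from 0 to 1 (PSMG1, 0.80, limma adjusted p = 0.022). Without a minimum fold, 1 gene was called in each of WI+CS24h-C against Ctl-C, WI+CS6h-C against WI-C, and both stored groups against WI-CMJ. Leaving out 1 sample at a time gave 1 to 2 genes for WI+CS6h-C against Ctl-C (PSMB8 added at 0.92, limma adjusted p = 0.0303, without its sample 4), 0 to 1 for WI+CS24h-C against Ctl-C (1 without its sample 4) and for WI+CS6h-C against WI-C, and 0 to 1 for WI+CS6h-CMJ and WI+CS24h-CMJ against Ctl-CMJ, each 0 without its own sample 5. With the replicate block the counts were 1, 1 and 1 and PAAF1 was at -0.58, -0.53 and -0.55, so that the block changed no call. The cause of these changes was not tested.

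Over all identifiers the counts moved more. Against Ctl-C, 34, 1445 and 900 calls after WI, WI+CS6h and WI+CS24h ranged over 5 to 107, 270 to 3062 and 121 to 1440. Against Ctl-CMJ, 247, 1148 and 1313 ranged over 7 to 360, 164 to 1452 and 192 to 1777. Against WI-C, 692 and 433 ranged over 7 to 1923 and 112 to 1014, and against WI-CMJ, 1000 and 1024 over 65 to 1605 and 168 to 1695. Between 24 h and 6 h, 0 and 1 reached 1152 and 352, Ctl-CMJ against Ctl-C (112) ranged over 37 to 390, and the interactions at 6 h and 24 h (0 each) reached 1013 and 194. The slide as a block or normexp gave the lowest of these ranges. Quantile normalization within groups gave the highest in most, and it moved the median of all identifiers by up to 0.24 (interaction at 24 h), by 0.14 in WI-C against Ctl-C, by 0.15 in WI+CS6h-C against WI-C, where PSMG1 was gained, and by 0.00, 0.04 and 0.12 in the 3 comparisons where PAAF1 was called. No other setting moved it by more than 0.07. Signal over background limited 1 of the 30 identifiers, and where a 95% interval reached past ±0.5 a change of that size is not shown to be absent with 5 samples a group.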
